A study of Mus musculus with 8 samples.

Results

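Crtac1, Ptprv, Tnfaip2 and Lmcd1 are 4 genes that were lower in nephron progenitors carrying an active form of Smo than in wild-type progenitors, and the data below follow them across all genotypes of the series. They are 4 of the 24539 genes in the count table. They were chosen by their measured log2 change between SmoM2-labelled and WT-labelled libraries, where 0.223% of the 13459 genes tested were called in either direction: 9 genes were lower at an adjusted p-value under 0.05 and these 4 had the largest falls. Their fall in that comparison is therefore a description, and the question asked of the other libraries is whether the same genes are higher when Smo is removed.

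Nephron progenitors are the mesenchymal cells of the embryonic kidney that renew themselves and give rise to nephrons. At E18.5 of mouse development they were isolated by flow sorting for Six2GFPcre, a transgene in which Six2 control elements drive a GFP-Cre fusion, and their polyadenylated RNA was sequenced. All embryos carried Six2GFPcre. The KO-labelled group was Smo c/c, with both Smo alleles open to removal by Cre; the Het-labelled group was Smo c/+; the WT-labelled group was Smo +/+; and the SmoM2-labelled group was Smo +/+ with 1 Rosa26 SmoM2 allele. Cre is made where the transgene is active, so any Smo change is limited to those cells and their descendants. Each group had 2 libraries, and the labels do not say whether these came from separate embryos or litters, so p-values measure the spread between these libraries.

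Smo sits in the membrane and relays Hedgehog signals into the cell. Without ligand it is held inactive by Ptch1. When ligand binds Ptch1, Smo becomes active and the Gli transcription factors turn on target genes such as Gli1, Ptch1 and Hhip. SmoM2 carries a mutation that keeps Smo active without ligand. In the developing kidney the pathway is best known for its action in the stroma around the collecting ducts and ureter.

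Several facts of the whole series bear on the 4 genes. Listed counts summed to between 4422305 and 10305398 per library, and both KO-labelled libraries were the shallowest. Smo was at 12.1 ± 1.39 CPM (counts divided by the scaled library size, as in edgeR's CPM, mean ± SD, n = 2) in libraries labelled KO, 19.2 ± 6.73 in those labelled Het, 369 ± 8.48 in those labelled WT and 617 ± 17.1 in those labelled SmoM2. The Het-labelled level was 5.2% of the WT-labelled level, which goes against a label of 1 remaining allele, so all libraries are named by their labels. By Xist and Y-linked counts both KO-labelled libraries were male, both Het-labelled libraries were female, and each other group held 1 of each. Of 7 Hedgehog target genes, 5 fell in KO- against WT-labelled and 4 in Het- against WT-labelled libraries. There 1538 and 1643 of the 13459 genes tested were called lower. In SmoM2- against WT-labelled libraries 4 of the 7 rose, where 21 of all tested genes were called higher. Progenitor markers were present in all groups, with Six2 at group means between 1232 and 1937 CPM.

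The 4 genes lie on 4 chromosomes of mm10 (GRCm38), the build named in the submitters' processing notes, with coordinates from GENCODE M21. Crtac1, which makes a calcium-binding extracellular protein first known from cartilage and, as its form LOTUS, a blocker of the Nogo receptor in neurons, spans chr19:42283035-42431783 on the minus strand. Ptprv, also called Esp or OST-PTP, spans chr1:135108497-135132594 on the minus strand. It is known as a receptor tyrosine phosphatase of osteoblasts and testis and as a p53 target in mouse, while RefSeq lists it in this assembly as a transcribed pseudogene and GENCODE as a processed transcript. Tnfaip2, also called M-Sec, is induced by tumour necrosis factor and is known for driving thin membrane bridges between cells, and it spans chr12:111442469-111455018 on the plus strand. Lmcd1, also called dyxin, is a LIM-domain cofactor that restrains GATA factors and acts in calcineurin signalling in muscle, and it spans chr6:112273758-112330425 on the plus strand. Each gene overlaps at least 1 annotated gene on the other strand. Because the strand setting of the counting is not stated, reads from such partners could not be told apart; the single partner listed in the count table, 5031434C07Rik inside Lmcd1, had 2 counts over all libraries.

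The promoters are shown because the 4 genes were low together in the SmoM2-labelled libraries. RefSeq's promoter table (GRCm38.p6) held Crtac1, Tnfaip2 and Lmcd1, which is 3 of the 4 genes, all but Ptprv. The windows below run 5′ to 3′ on the gene's strand through the 250 bases before the first listed start, and capitals mark matches to the motifs searched. For Tnfaip2 only the first 58 bases of the window are shown, up to where an annotated first exon of another transcript begins.
Crtac1, chr19:42431789-42432038, minus strand: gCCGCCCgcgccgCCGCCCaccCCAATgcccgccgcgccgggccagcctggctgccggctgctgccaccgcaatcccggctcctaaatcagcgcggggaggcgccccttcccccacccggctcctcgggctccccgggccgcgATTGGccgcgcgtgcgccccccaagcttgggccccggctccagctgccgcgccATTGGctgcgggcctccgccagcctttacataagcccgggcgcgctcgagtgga
Lmcd1, chr6:112273508-112273757, plus strand: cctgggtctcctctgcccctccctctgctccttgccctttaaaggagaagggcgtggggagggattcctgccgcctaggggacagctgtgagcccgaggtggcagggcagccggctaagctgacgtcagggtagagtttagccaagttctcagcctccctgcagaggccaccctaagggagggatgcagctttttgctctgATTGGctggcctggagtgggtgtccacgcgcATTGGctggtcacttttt
Tnfaip2, chr12:111442411-111442468, plus strand: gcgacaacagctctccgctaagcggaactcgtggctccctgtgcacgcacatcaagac

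The motifs searched on both strands were GACCACCCA for GLI factors, a narrow form of the NF-kB consensus and TGANTCA for AP-1. TATAAA for a TATA box, CCAAT for a CCAAT box and GGGCGG for a GC box were searched too. The NF-kB form fixed nearly every base, so looser NF-kB sites were not searched for and may be present. No window of these genes held the GLI, NF-kB, AP-1 or TATA letters. Among all 32851 promoters of the table, taken over the same 250 bases, the GLI letters were in 0.225%, the NF-kB letters in 0.356%, the AP-1 letters in 6.75% and the TATA letters in 12.4%. CCAAT or its reverse ATTGG, which 33.8% of all promoters hold, occurred in the first Crtac1 window, in the Lmcd1 window and in the full Tnfaip2 window. In Lmcd1 the 2 matches lie at positions -49 to -45 and -18 to -14, counted back from the base before the start. GGGCGG or CCGCCC, which 32.7% of promoters hold, occurred in the first Crtac1 window and, within the exonic part that is not shown, in the Tnfaip2 window. The G and C content was 77.6% in the first Crtac1 window, 65.6% in Tnfaip2 and 61.2% in Lmcd1, against a median of 52.4% over all promoters. No match overlapped one of another motif, and a second listed Crtac1 start, inside the gene, had no match.

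Tnfaip2 was the gene of the 4 called higher than WT under both the KO and the Het label, and its level stepped down from KO through Het and WT to SmoM2, the last step being the one that chose it. In sorted bulk RNA, more cells of a type and more RNA per cell cannot be told apart, here and in all results that follow. Its level was 64.2 and 85.6 CPM in libraries labelled KO, 26.9 and 45.4 in those labelled Het, 9.42 and 11.7 in those labelled WT and 2.86 and 2.43 in those labelled SmoM2. No group overlapped the next in this order. Of all tested genes, 29.2% had both KO-labelled libraries above both Het-labelled libraries and 32.8% had both Het-labelled above both WT-labelled libraries. In the pair that chose the gene, 18.4% had both SmoM2-labelled libraries below both WT-labelled libraries. The counts behind these levels were 290 and 393, 201 and 267, 101 and 107, and 28 and 21. As group means the level was 74.9 ± 15.1, 36.1 ± 13.1, 10.5 ± 1.58 and 2.65 ± 0.308 CPM (SD, n = 2).

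**Figure D1:**
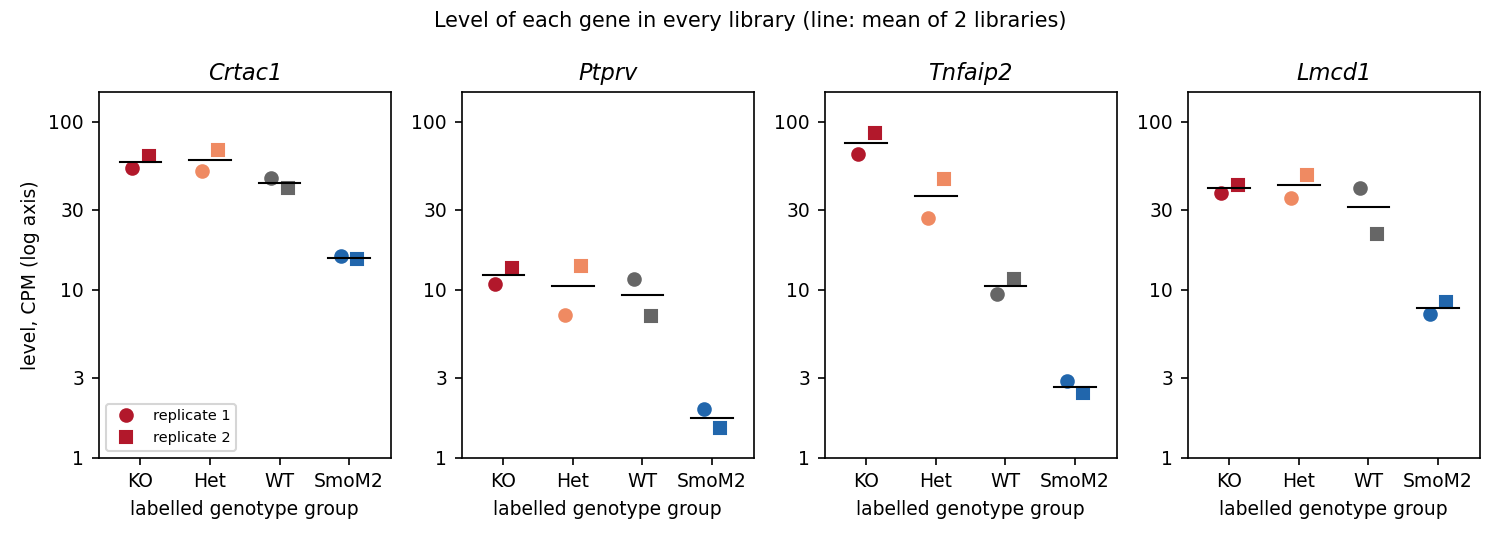
Level of each gene in CPM (vertical, log axis) in every library, by labelled genotype group (horizontal); circles are replicate 1, squares replicate 2 and lines the mean of 2 libraries. Tnfaip2 steps down from 64.2 and 85.6 CPM in the KO-labelled libraries to 2.86 and 2.43 CPM in the SmoM2-labelled libraries, while the other genes are low in the SmoM2-labelled libraries alone.

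Compared with the WT-labelled libraries, Tnfaip2 was 7.12-fold higher with the KO label (log2 2.83, SE 0.26, edgeR adjusted p 9.55e-05). In this comparison 11.6% of the 13459 genes tested were called higher, and 49 genes, or 0.364%, had a larger rise than Tnfaip2. It was 3.41-fold higher in the Het-labelled libraries (log2 1.77, SE 0.26, edgeR adjusted p 0.000984), where 13.1% of genes were called higher. Both comparisons share the WT-labelled libraries with the choice of the genes. Between KO- and Het-labelled libraries the fold change uses none of the libraries that chose the genes, while its SE and p-value draw part of their spread from them. There Tnfaip2 was 2.09-fold higher in the KO-labelled libraries (log2 1.06, SE 0.24, edgeR adjusted p 0.0219), while 4.33% of all genes were called higher and 29.2% had both KO-labelled libraries above both Het-labelled libraries. Fitted on those 4 libraries alone, the log2 change was 1.06 (edgeR adjusted p 0.0241).

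The KO- against Het-labelled call for Tnfaip2 depended on single libraries: it was 0.83 (edgeR adjusted p 0.121) without KO-labelled replicate 2 and 0.72 (edgeR adjusted p 0.176) without Het-labelled replicate 1. It also did not pass with sex as a term (1.21, edgeR adjusted p 0.0910); within these groups sex and genotype cannot be told apart, so that fit takes the sex effect from the libraries labelled WT and SmoM2. The rise against WT-labelled libraries was called in the KO-labelled group under all 18 alternatives, with log2 changes from 2.26 to 3.02.

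Crtac1 was low in the SmoM2-labelled libraries and near a common level in the others. It was at 52.7 and 62.05 CPM in libraries labelled KO, 50.7 and 67.4 in those labelled Het, 46.2 and 40.4 in those labelled WT and 15.9 and 15.1 in those labelled SmoM2. All 4 KO- and Het-labelled libraries lay above both WT-labelled libraries, a separation that 32.2% of genes showed in KO- against WT-labelled and 32.8% in Het- against WT-labelled libraries. Its log2 change from WT was 0.40 in the KO-labelled (SE 0.16, edgeR adjusted p 0.0975) and 0.44 in the Het-labelled libraries (SE 0.16, edgeR adjusted p 0.0660). Neither passed the threshold, although the Het-labelled change did when all genes were tested without a filter (edgeR adjusted p 0.0397). The 95% intervals, which are not adjusted for the number of genes, ran from 0.04 to 0.77 and from 0.09 to 0.80.

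Ptprv, the least abundant of the 4, was also low in the SmoM2-labelled libraries alone. It was at 10.9 and 13.5 CPM in libraries labelled KO, 7.09 and 13.9 in those labelled Het, 11.6 and 6.97 in those labelled WT and 1.94 and 1.502 in those labelled SmoM2. The KO-, Het- and WT-labelled libraries overlapped one another, and the SmoM2-labelled libraries lay below all of them. With 13 to 124 counts per library its change was loosely fixed: 0.39 in KO- against WT-labelled (95% interval -0.39 to 1.16, edgeR adjusted p 0.456) and 0.16 in Het- against WT-labelled libraries (-0.61 to 0.92, edgeR adjusted p 0.769).

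Lmcd1 was lowest in the SmoM2-labelled libraries too, and its WT-labelled libraries differed from each other. It was at 37.9 and 42.2 CPM in libraries labelled KO, 35.0 and 48.4 in those labelled Het, 40.5 and 21.6 in those labelled WT and 7.16 and 8.44 in those labelled SmoM2. WT-labelled replicate 1 lay among the KO- and Het-labelled libraries and replicate 2 lay below them. Its log2 change from WT was 0.36 with the KO label (95% interval -0.21 to 0.94, edgeR adjusted p 0.342) and 0.42 with the Het label (-0.15 to 0.98, edgeR adjusted p 0.259). These values rest on which WT-labelled library is used. Without replicate 1 they were 0.89 (edgeR adjusted p 0.0295) and 0.94 (edgeR adjusted p 0.0192), both past the threshold, and without replicate 2 they were -0.05 (edgeR adjusted p 0.910) and 0.01 (edgeR adjusted p 0.973).

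Between KO- and Het-labelled libraries these 3 genes did not pass the threshold either. Crtac1 changed by -0.04 (95% interval -0.40 to 0.32, edgeR adjusted p 0.913), Ptprv by 0.23 (-0.56 to 1.02, edgeR adjusted p 0.729) and Lmcd1 by -0.05 (-0.64 to 0.53, edgeR adjusted p 0.923). For KO against WT labels the interval of Tnfaip2, 2.27 to 3.39, lay above the intervals of the other 3 genes, whose highest bound was 1.16. That difference between genes was not itself tested. So 1 of the 4 genes was called in KO- against WT-labelled libraries, where 23.0% of all genes were called, and the same gene was the 1 called in Het- against WT-labelled (25.3% of all genes) and in KO- against Het-labelled libraries (9.43%).

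**Figure D2:**
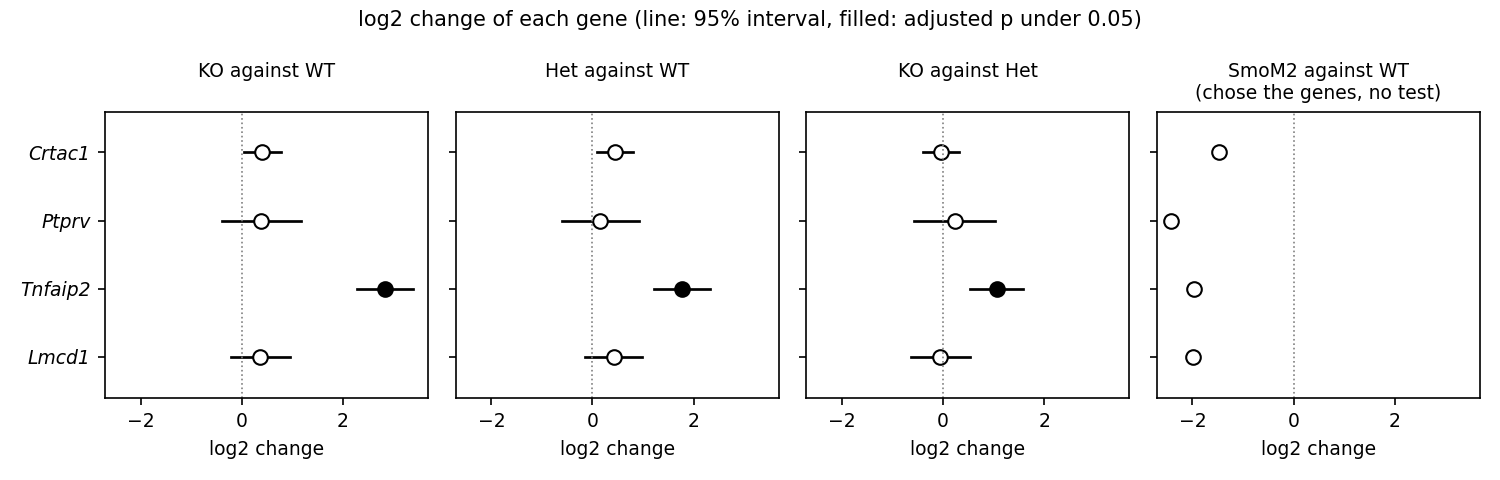
log2 change (horizontal) of each gene in 4 comparisons between labelled groups; points are edgeR estimates from 2 libraries a group, lines are 95% intervals and filled points have an adjusted p under 0.05. Tnfaip2 is at 2.83, 1.77 and 1.06 in the comparisons without SmoM2-labelled libraries, where the other genes lie between -0.05 and 0.44; the last panel shows the values that chose the genes, with no test.

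The falls that chose the genes, given as a description, were -2.42 for Ptprv, -2.0 for Lmcd1, -1.98 for Tnfaip2 and -1.48 for Crtac1 on the log2 scale. Genes called lower made up 0.0669% of those tested in that comparison, and 18.4% had both SmoM2-labelled libraries below both WT-labelled libraries. Adjusted p-values of the 4 lay between 0.00784 and 0.0427. The members nearest the threshold, Ptprv and Tnfaip2, were at 0.0427, and the nearest gene outside it was Mmp2 at -0.93 and 0.0557. Their place under the threshold depended on single libraries, on the tool and on the terms of the fit. Without SmoM2-labelled replicate 1 or 2, WT-labelled replicate 1 or KO-labelled replicate 1 or 2, Ptprv, Tnfaip2 and Lmcd1 had edgeR adjusted p-values from 0.0551 to 0.258. Dropping a KO-labelled library changed the estimate of spread and the number of genes tested, to 13911 and 13968. Crtac1 was at 0.0524 and 0.0554 without SmoM2-labelled replicates 1 and 2. With limma voom the adjusted p-values of Ptprv, Tnfaip2 and Lmcd1 were 0.0829, 0.131 and 0.0533, and in an edgeR fit on the SmoM2- and WT-labelled libraries alone all 3 were at 0.0774. With the stress score described below as a term none of the 4 passed, with edgeR adjusted p-values from 0.0787 for Crtac1 to 0.307 for Ptprv.

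In the authors' RPKM, which divides reads by gene length and by library total, Tnfaip2 moved from far below Crtac1 and Lmcd1 to near their level. In the WT-labelled libraries Lmcd1 was at 14.9 ± 7.04 RPKM and Crtac1 at 13.6 ± 1.93 RPKM, which did not differ beyond their spread, with Tnfaip2 at 2.41 ± 0.249 and Ptprv at 1.26 ± 0.497 RPKM. In the KO-labelled libraries Tnfaip2 reached 17.9 ± 3.83 RPKM, within the spread of Lmcd1 at 19.8 ± 1.77 and Crtac1 at 18.7 ± 2.38 RPKM. In the SmoM2-labelled libraries Crtac1 was at 4.73 ± 0.167, Lmcd1 at 3.602 ± 0.408, Tnfaip2 at 0.592 ± 0.0706 and Ptprv at 0.226 ± 0.0415 RPKM. Set against the other tested genes, Tnfaip2 lay above 69.9% of them under the KO label, 50.5% under Het, 24.7% under WT and 9.29% under SmoM2.

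The other 5 genes that were lower in SmoM2- than in WT-labelled libraries were Kcnk2, Igfbp6, Evpl, Kazald1 and Tspan18, with log2 changes from -1.34 to -0.80. Of these, 4 rose in the KO-labelled libraries, and Kazald1 fell. Kcnk2, a potassium channel that sets resting potential, was at 40.2 ± 1.72 CPM in libraries labelled KO, 36.7 ± 8.84 in those labelled Het, 13.4 ± 1.29 in those labelled WT and 5.30 ± 0.309 in those labelled SmoM2. Its change from WT was 1.58 with the KO label (edgeR adjusted p 0.000566) and 1.44 with the Het label (edgeR adjusted p 0.000852). Tspan18, a tetraspanin of the cell surface, changed by 1.45 and 1.26 (edgeR adjusted p 8.02e-05 and 0.000116). Igfbp6, which binds insulin-like growth factor 2, changed by 1.40 and 0.76 (edgeR adjusted p 0.00104 and 0.0173). Evpl, the junction protein envoplakin of epithelia, rose by 1.52 with the KO label (edgeR adjusted p 0.000461), and its 0.50 with the Het label did not pass (edgeR adjusted p 0.0711).

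Kazald1, a secreted protein with an insulin-like growth factor binding domain, had its highest level in the WT-labelled libraries. It was at 14.2 ± 0.0142 CPM in libraries labelled KO, 5.22 ± 1.13 in those labelled Het, 54.5 ± 2.93 in those labelled WT and 25.5 ± 0.713 in those labelled SmoM2. It fell in both KO- against WT-labelled (log2 -1.94, edgeR adjusted p 0.000108) and Het- against WT-labelled libraries (log2 -3.36, edgeR adjusted p 9.90e-06). The 9 genes thus held 3 courses over the genotypes: 5 that rose in the KO-labelled libraries, among them Tnfaip2, where 11.6% of all genes rose; 3 that were not called there, Crtac1, Ptprv and Lmcd1; and 1 that fell. Between KO- and Het-labelled libraries, Evpl (1.02, edgeR adjusted p 0.0113) and Kazald1 (1.42, edgeR adjusted p 0.00714) rose beside Tnfaip2, which is 3 of the 9, where 4.33% of all genes were called higher. In the fit on those 4 libraries alone, Evpl (edgeR adjusted p 0.0148) and Kazald1 (edgeR adjusted p 0.0182) passed too, as did Igfbp6 (0.63, edgeR adjusted p 0.0333), which had missed the threshold at 0.0644.

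**Figure D3:**
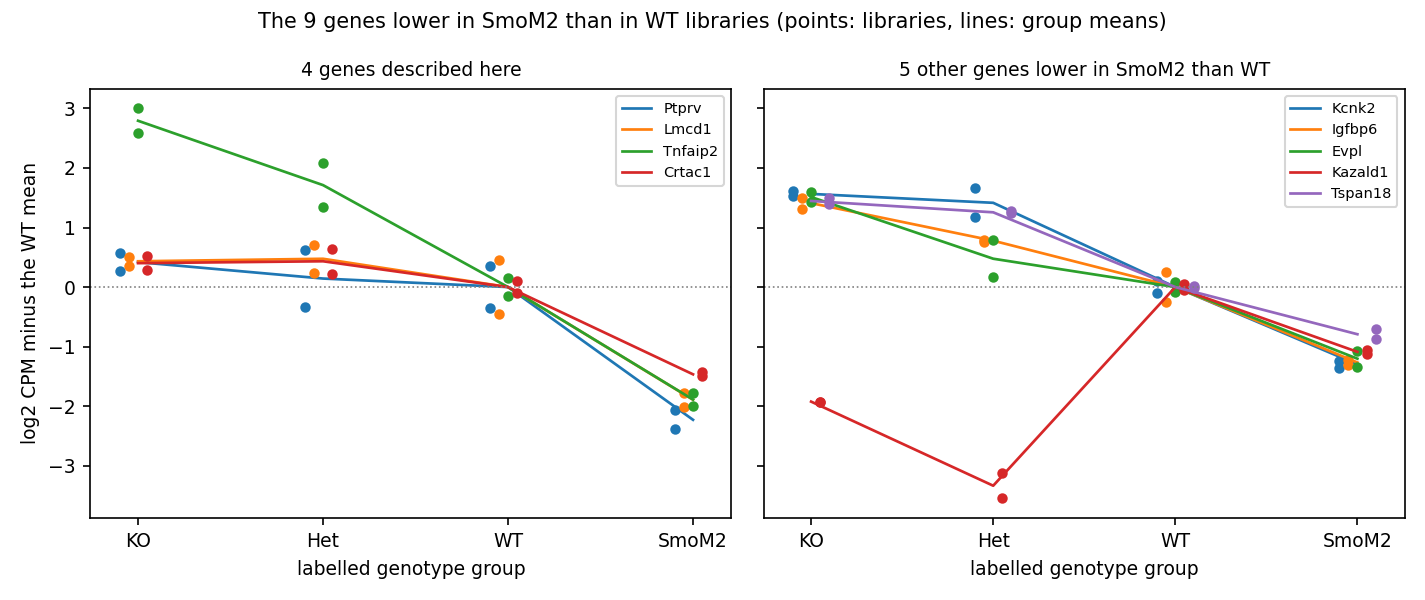
log2 CPM minus the WT-labelled mean (vertical) for the 9 genes lower in SmoM2- than in WT-labelled libraries, by labelled group (horizontal); points are libraries and lines join group means. Tnfaip2, Kcnk2, Igfbp6, Evpl and Tspan18 slope down from KO to SmoM2, Crtac1, Ptprv and Lmcd1 drop at SmoM2 alone, and Kazald1 is highest in WT.

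Likeness of pattern was measured as Pearson's r of log2 CPM over the 8 libraries, which share genotype groups, so no p-value is given. These libraries include the SmoM2- and WT-labelled libraries that chose the genes, so a high r among the 4 follows in part from the choice. Among themselves Crtac1, Ptprv and Lmcd1 had r from 0.976 to 0.982, and Tnfaip2 had r from 0.872 to 0.914 with them. The tested genes most like Tnfaip2 were Esrp2 (r 0.991), an epithelial splicing regulator, Wipf3 (0.986), a partner of WASP proteins in actin assembly, and Gldn (0.985), gliomedin, a protein of the nodes of Ranvier. Wipf3 was at 29.4 ± 2.13, 18.9 ± 5.29, 5.61 ± 0.545 and 2.99 ± 0.182 CPM in the order KO, Het, WT, SmoM2. Esrp2 never exceeded 2.61 CPM and had 1 to 12 counts per library. Beside each other and Crtac1, the genes most like Ptprv and Lmcd1 were Loxl1 (r 0.988 with Ptprv), an enzyme that cross-links elastin, and Rmnd1 (0.984) and Trim62 (0.977) with Lmcd1. Loxl1 was at 72.8 ± 7.82, 69.0 ± 22.5, 57.8 ± 12.2 and 29.1 ± 1.78 CPM over the same order of groups.

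Neighbouring genes were looked at by position. The coding genes on both sides of Tnfaip2 were also called higher by edgeR in the KO-labelled libraries, but Exoc3l4 was not by DESeq2. Exoc3l4, a Sec6-like relative of Tnfaip2 that lies 10791 bases away, changed by 1.75 in KO- against WT-labelled (edgeR adjusted p 0.0226, DESeq2 adjusted p 0.0545) and by 1.23 in Het- against WT-labelled libraries (edgeR adjusted p 0.0793). Gm266, 29591 bases away on the other side, changed by 1.62 (edgeR adjusted p 4.90e-05) and 1.298 (edgeR adjusted p 0.000108). In SmoM2- against WT-labelled libraries they were at -0.46 and -0.26, neither past the threshold (edgeR adjusted p 0.930 and 0.705). Next to Ptprv, Lgr6, a receptor for R-spondins 3221 bases away, changed by 2.34 in KO- against WT-labelled libraries (edgeR adjusted p 0.00160), where Ptprv itself was not called. Ptpn7, which lies 106 bases from the other end of Ptprv, was below the count filter. R3hcc1l beside Crtac1 (0.72, edgeR adjusted p 0.0636) and Grm7 beside Lmcd1 (0.14, edgeR adjusted p 0.906) did not pass in KO- against WT-labelled libraries.

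Genes that work with the 4 were taken from 7 lists holding 106 genes, of which 82 were tested. In KO- against WT-labelled libraries 9 were called higher and 11 lower, which is 24.4% called against 23.0% of all genes. In Het- against WT-labelled libraries 12 were higher and 13 lower, or 30.5% against 25.3%. In KO- against Het-labelled libraries 2 were higher and 4 lower, or 7.32% against 9.43%. In SmoM2- against WT-labelled libraries edgeR and limma voom called 0 of the 82, DESeq2 called 1, and 10 had an unadjusted edgeR p under 0.05.

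For Tnfaip2 the lists were NF-kB targets and the exocyst with its Sec6-like relatives. Of 13 tested NF-kB genes, 1 rose in KO- against WT-labelled libraries and 3 in Het- against WT-labelled libraries, with medians of 0.13 and 0.13 beside 0.03 and -0.02 over all genes. Over all tested genes 11.6% and 13.1% rose in these comparisons. Traf1, an adaptor of tumour necrosis factor receptors, rose in both, by 2.24 (edgeR adjusted p 0.00160) and 2.54 (edgeR adjusted p 0.000715). Nfkbia and Nfkb2, an inhibitor and a subunit of NF-kB, rose in the Het-labelled libraries by 0.60 (edgeR adjusted p 0.00874) and 0.92 (edgeR adjusted p 0.00336). Nfkb2 was lower in KO- than in Het-labelled libraries (-0.78, edgeR adjusted p 0.0218), opposite to Tnfaip2. Of 13 tested exocyst and related genes, edgeR called 1 with the KO label, Exoc3l4, which DESeq2 did not call, and 1 rose and 4 fell in Het- against WT-labelled libraries. The share of all tested genes called in either direction was 23.0% with the KO label and 25.3% with the Het label. Rala, the GTPase with which Tnfaip2 is known to act, was higher in KO- than in Het-labelled libraries (0.60, edgeR adjusted p 0.0211). It was at 61.2 ± 4.30 CPM in libraries labelled KO, 40.3 ± 0.296 in those labelled Het and 53.1 ± 2.90 in those labelled WT. Rala was among the 4 that fell in Het- against WT-labelled libraries, where Tnfaip2 rose, and was not called in KO- against WT-labelled libraries.

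For Ptprv, of 11 tested receptor phosphatases 1 rose and 5 fell in KO- against WT-labelled libraries, where 23.0% of all genes were called. Their median was -0.42 beside 0.03 over all genes. Ptprd changed by -1.98 (edgeR adjusted p 0.000169), Ptprf by -0.90 (edgeR adjusted p 0.00130) and Ptpro, of podocytes, by -2.21 (edgeR adjusted p 0.0171). Ptprm rose by 0.66 (edgeR adjusted p 0.0476), a call that was lost with median-ratio size factors. Of the same 11 genes 1 rose and 1 fell in Het- against WT-labelled libraries, with a median of 0.11 beside -0.02 over all genes. In KO- against Het-labelled libraries 3 fell, with a median of -0.42 beside 0.02, where 9.43% of all genes were called. Of 14 tested p53 genes, 4 rose and 1 fell in KO- against WT-labelled libraries, and 4 rose and 3 fell in Het- against WT-labelled libraries. Over all tested genes 23.0% and 25.3% were called in these comparisons. Phlda3, an inhibitor of Akt, rose by 1.06 (edgeR adjusted p 0.00105) and Bax, which drives apoptosis, by 0.57 (edgeR adjusted p 0.0145) in the KO-labelled libraries, while Cdkn1a, a cell cycle inhibitor, changed by -1.03 (edgeR adjusted p 0.0837) there and fell by 1.71 in the Het-labelled libraries (edgeR adjusted p 0.0111).

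For Crtac1, of 10 tested Nogo receptor genes 1 rose and 2 fell in KO- against WT-labelled libraries, where 23.0% of all genes were called. Ngfr, a coreceptor, rose by 1.05 (edgeR adjusted p 0.00567). The kinases Rock1 and Rock2 changed by -0.51 and -0.50 (edgeR adjusted p 0.0293 and 0.0316), and no fall of the list was called when library totals were taken from the RPKM values. Rtn4r, the Nogo receptor itself, was at 0.13 (edgeR adjusted p 0.852). For Lmcd1, 13 GATA and calcineurin genes were tested, of which Ppp3ca, the catalytic subunit of calcineurin, fell by 0.77 (edgeR adjusted p 0.00260) and Nfatc3 by 0.51 (edgeR adjusted p 0.0283) with the KO label. Of 8 LIM-domain relatives Tes rose by 0.92 (edgeR adjusted p 0.00978) and Fhl2 fell by 0.83 (edgeR adjusted p 0.0186).

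Tnfaip2 is also known from endothelial and myeloid cells, so markers of other cells were set beside it. The 12 endothelial markers summed to between 53.3 and 77.05 CPM in libraries labelled KO, 46.0 and 47.3 in those labelled Het, 25.5 and 32.2 in those labelled WT and 25.2 and 33.6 in those labelled SmoM2. Some of the 12 were near 0 in every library: Pecam1 had at most 3 counts, Cdh5 at most 9 and Kdr at most 9. These 3 do not stand for the whole list. Of the 4 tested genes of this list, 3 rose in KO- against WT-labelled libraries, where 11.6% of all genes rose. They were Cldn5, a junction protein (3.58, edgeR adjusted p 0.000180), Egfl7, a secreted vessel factor (0.84, edgeR adjusted p 0.0435), and Plvap, of fenestrated vessels (0.78, edgeR adjusted p 0.0496). Egfl7 was not called by DESeq2 nor Plvap by limma voom. Plvap rose in Het- against WT-labelled libraries as well (1.03, edgeR adjusted p 0.0129), and Cldn5, with 100 and 78 counts in the KO-labelled libraries, had 4 and 4 in the Het-labelled libraries. The 13 immune markers summed to between 16.6 and 40.3 CPM in libraries labelled KO, 51.9 and 54.2 in those labelled Het, 38.8 and 47.8 in those labelled WT and 34.2 and 37.6 in those labelled SmoM2, and Ptprc had at most 1 count in any library. KO-labelled replicate 2, which had the highest Tnfaip2 level, had the lower immune, endothelial and erythroid sums of its group and the higher early nephron sum. Such an order sets 1 library against 1, and it differed between groups. Het-labelled replicate 2, with more Tnfaip2 than replicate 1, had the lower endothelial and erythroid and the higher immune and early nephron sums. WT-labelled replicate 2, also with more Tnfaip2, had the lower immune sum and the higher endothelial, erythroid and early nephron sums. The 9 erythroid markers summed to between 14.2 and 45.8 CPM in libraries labelled KO, 20.4 and 26.7 in those labelled Het, 4.29 and 5.34 in those labelled WT and 3.01 and 7.98 in those labelled SmoM2. Of 4 tested, 3 rose in KO- against WT-labelled libraries, the globin genes Hba-a1, Hba-a2 and Hbb-bs, and both Hba genes, near-identical copies with the same values, rose in Het- against WT-labelled libraries. Over all tested genes 11.6% and 13.1% rose in these comparisons. The 16 markers of early nephron structures summed to 1735 and 2083 CPM in KO-labelled replicates 1 and 2 and to 707 and 1031 CPM in the Het-labelled ones. The sums were 623 and 900 CPM in WT-labelled replicates 1 and 2 and 645 and 861 CPM in the SmoM2-labelled ones. Of the 15 tested genes of this list, 12 rose in KO- against WT-labelled libraries, where 11.6% of all genes rose. The part of these marker lists in the rise of Tnfaip2 was not tested.

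Stromal markers were set beside Lmcd1 because its WT-labelled libraries differed. The 14 markers summed to 820 CPM in WT-labelled replicate 1 and 475 CPM in replicate 2, the order that Lmcd1 showed. In the SmoM2-labelled libraries, whose low Lmcd1 level chose the gene, they summed to between 768 and 899 CPM. KO-labelled replicates 1 and 2 were at 884 and 171 CPM, with Lmcd1 at 37.9 and 42.2 CPM. The sum mixes markers with different courses over the groups. Foxd1 was at 8.27 ± 6.46 CPM with the KO label and 18.53 ± 5.55 with the Het label. It was at 184 ± 17.8 CPM with the WT label and 343 ± 59.4 with the SmoM2 label. Foxd1 was called lower in KO- and in Het- against WT-labelled libraries. With the KO label Acta2 was called higher, and 11 of 13 tested markers were not called. WT-labelled replicate 1 was male and replicate 2 female. The part of the stromal markers in the Lmcd1 values was not tested. Stress genes induced by dissociation, 14 in number, summed to between 4667 and 6779 CPM in libraries labelled KO, 8868 and 9020 in those labelled Het, 3217 and 3377 in those labelled WT and 3652 and 5238 in those labelled SmoM2. With a score of these genes as a term, Tnfaip2 kept its call in KO- against WT-labelled libraries (2.26, edgeR adjusted p 0.0257) and did not pass in Het- against WT-labelled (0.62, edgeR adjusted p 0.777) or in KO- against Het-labelled libraries (1.64, edgeR adjusted p 0.0860). The score was 0.83 and 1.07 in Het-, -0.94 and -0.74 in WT- and -0.14 and 0.22 in KO-labelled libraries. These groups did not overlap, so stress and genotype cannot be told apart in these fits. In the SmoM2-labelled libraries it was -0.58 and 0.27, the widest spread within a group, on both sides of the KO-labelled scores and above the WT-labelled ones. Beside group means the term is set by spread within groups, so the SmoM2-labelled libraries weigh most in it. Over all genes the term left 16 calls in Het- against WT-labelled libraries, from 3403 without it.

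**Figure D4:**
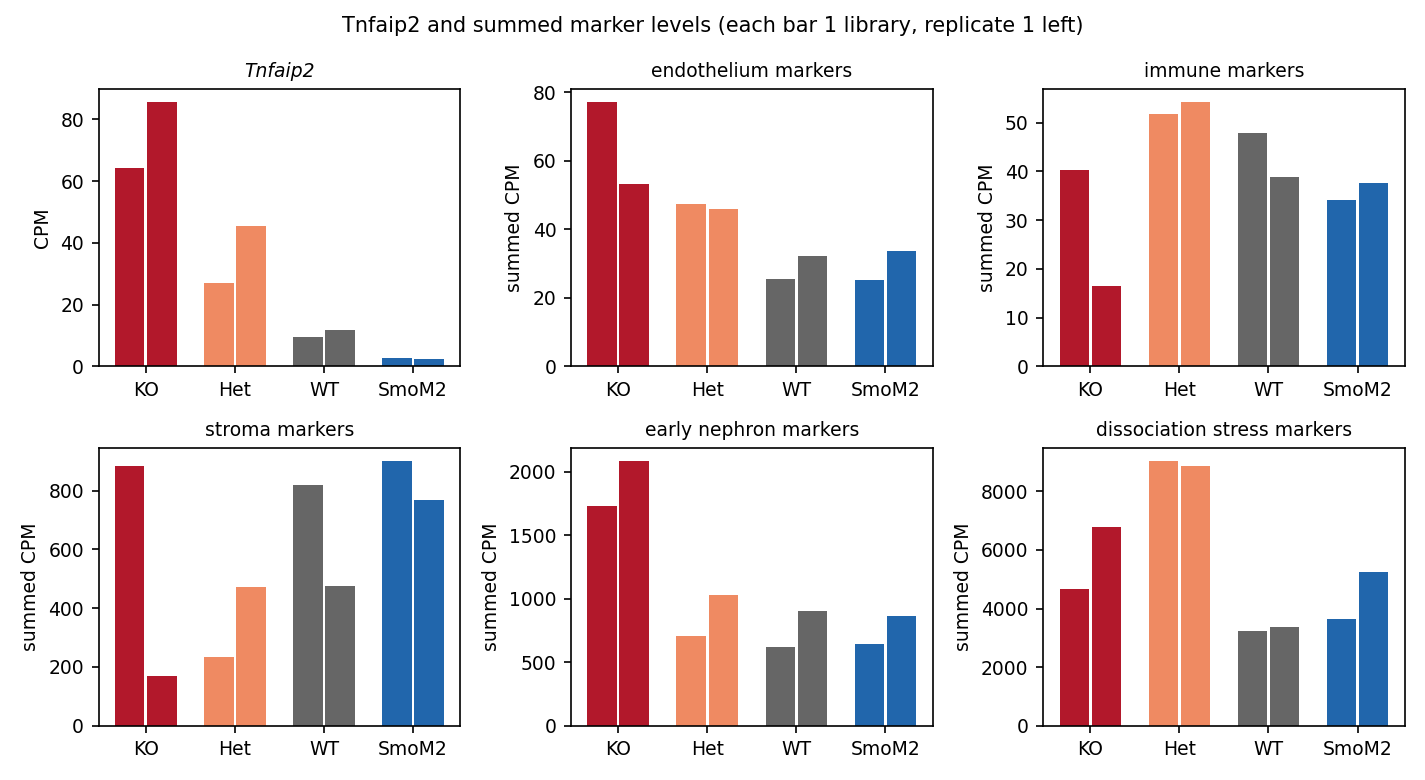
Level of Tnfaip2 and summed levels of 5 marker lists (vertical, CPM, each panel with its own scale from 0) in each library, by labelled group (horizontal); each bar is 1 library with replicate 1 at the left. Tnfaip2 falls in steps from KO to SmoM2; the endothelial sum is highest in KO, the stress sum in Het and the early nephron sum in KO.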

How the data were processed

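Polyadenylated RNA of sorted cells was sequenced in 8 libraries. Per the file headers, the authors deposited raw read counts and RPKM values per gene in a single table with a gene length. STAR, featureCounts and Subread and the build mm10 are named in the submitters' processing notes; the annotation and strand setting are not given in the sources used here. Groups and replicate numbers came from the labels, and no library was left out.

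The count test was edgeR's (4.0.16, under R 4.3.3). After filterByExpr there were 13459 genes, all 4 genes among them; TMM gave the size factors, and a quasi-likelihood model with a mean per group was fitted to all 8 libraries (4 residual degrees of freedom). P-values were two-sided and adjusted over all tested genes by Benjamini-Hochberg, threshold 0.05. SEs are those the statistic implies. With 2 libraries against 2 an exact permutation test cannot go below 0.333, so none is given. Log2 CPM used a prior count of 2. On simulated counts for KO- against WT-labelled libraries (13225 genes), 81% of 100 genes changed 2-fold and 97% of 100 genes changed 4-fold were recovered, with 8 false calls. The simulated spread followed the fitted trend with level and not the spread of each gene. These shares therefore do not give the power for single genes such as Ptprv or Lmcd1.

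The 4 genes and the lists were chosen with earlier results of these data known. Named genes are the 4, the other genes lower in SmoM2-labelled libraries, list members, and for each of the 4 the 3 genes of highest r; genomic neighbours and Mmp2 were added after their values were seen. Of the list genes 1 was absent from the table. Alternatives were median-ratio size factors, DESeq2 1.42.0, limma 3.58.1 voom, no filter, at least 10 counts in every library, RPKM-implied totals, only the 2 groups compared, replicate number, sex or a stress score as a term, and each library left out.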

Additional observations from a re-analysis of the deposited data

How the results depend on the processing

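The KO- against WT-labelled rise of Tnfaip2 was called in all 18 alternatives. Tnfaip2 in Het- against WT-labelled libraries failed with the stress score as a term (0.62), and in KO- against Het-labelled libraries with sex (1.21) or the stress score (1.64) as a term; leaving out 1 library gave 0.72 to 1.46 there and 1.34 to 2.08 against WT. Crtac1 passed in Het- against WT-labelled libraries without a filter (0.44). Uncalled changes crossed 0 in KO- against Het-labelled libraries for Crtac1 (0.0398 with RPKM-implied totals, 0.0717 with the stress score, -0.24 to 0.16 leaving out 1 library), Lmcd1 (0.0230, 0.102, and -0.28 to 0.17) and Ptprv (-0.39 with sex, and -0.20 to 0.76). Leaving out 1 library gave -0.0468 to 0.89 for Lmcd1 and 0.28 to 0.51 for Crtac1 in KO- against WT-labelled libraries, and in Het- against WT-labelled libraries -0.41 to 0.57 for Ptprv, 0.0139 to 0.94 for Lmcd1 and 0.21 to 0.60 for Crtac1. The cause was not tested.

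Over all genes, 3100 were called in KO- against WT-labelled libraries, 575 with the stress score and 1304 to 2924 leaving out 1 library. Het- against WT-labelled libraries gave 3403, or 16 and 1401 to 3615. KO- against Het-labelled libraries gave 1269, or 316 and 36 to 1472 (36 without Het-labelled replicate 1), and 2217 without a filter; 583 were higher and 686 lower, or 937 and 511 with RPKM-implied totals. SmoM2- against WT-labelled libraries gave 30 (21 higher, 9 lower), or 16 and 11 with RPKM-implied totals and 26 and 2 with limma voom; the count was 82 with DESeq2, 356 without a filter, 54 with sex, 7 with the stress score, 8 with only these groups and 8 to 81 leaving out 1 library.

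The labels give no shared source for replicate numbers, and deviations from group means correlated between -0.0606 and 0.0997 in 5 of the 6 pairs of groups, so the numbers were not taken as pairs. The exception was WT with SmoM2 labels, at 0.391, where replicate 1 was male and replicate 2 female in both groups. The replicate block gave 54 genes in SmoM2- against WT-labelled libraries and changed no call of the 4 genes. Counts of 13 to 124 limit what can be said of Ptprv.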
